A study of Homo sapiens with 9 samples.

Results

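Proteoglycans are core proteins that carry long sulfated sugar chains, the glycosaminoglycans. The genes described here are 41 core proteins, partners and chain-building enzymes, chosen by symbol and by known role from the 61209 gene symbols of an RNA-seq count table. They comprise 28 core proteins, 2 link proteins, the hyaluronan receptor CD44, 2 hyaluronan synthases and 8 enzymes that start, extend or sulfate the chains. Earlier results of these data were known when the members and the further lists below were chosen. Their counts beside the shares of all genes are therefore a description, not a test. Of the 41 members, 34 passed the filter on low counts and were tested, and 7 did not (NCAN, FMOD, PODNL1, OMD, GPC5, SRGN and HAS2), with no library above 0.357 CPM for any of them. Levels are given in CPM, read counts scaled to a common normalized library size. OGN passed the filter on low counts only through its imatinib libraries, where it was highest. HAPLN1 passed only with its siERRα libraries, where it too was highest. The differences of OGN from imatinib cells and of HAPLN1 from siERRα cells are thus partly set by the filter. Counts below are of tested members, and 30 of the 41 had at least 10 counts in every library.

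All libraries came from GIST-T1, a human gastrointestinal stromal tumor line that is sensitive to imatinib and carries the KIT exon 11 deletion del560-79. The 3 groups of 3 libraries each were cells transfected with siRNA against ESRRA, the gene of the nuclear receptor ERRα (siERRα, libraries S4, S5 and S6), cells transfected with non-target siRNA and treated with 50 nM of the KIT inhibitor imatinib (imatinib, S16, S17 and S18), and cells transfected with non-target siRNA (siNC, S1, S2 and S3). Every group received Lipofectamine and siRNA, and cells were harvested 48 h after transfection. The study asked what loss of ERRα, or inhibition of KIT, does to gene expression in GIST cells. All results are from a single line, and no source says whether replicate libraries were grown as separate cultures, so p-values reflect library-to-library spread alone, which may be technical.

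Glycosaminoglycan synthesis begins when a xylosyltransferase attaches xylose to a serine of the core protein, after which a short linker is built. Chondroitin synthases then extend the linker into chondroitin sulfate, or exostosins extend it into heparan sulfate, and sulfotransferases decorate the chain. Hyaluronan differs in that it has no core protein and is made at the plasma membrane. Syndecans and glypicans hold heparan sulfate at the cell surface, where it binds growth factors, while hyalectans, perlecan, agrin and the small leucine-rich proteoglycans lie in the matrix.

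Library totals ran from 37527236 to 49363002 counts, and ESRRA was 0.757 to 1.40 CPM in siERRα libraries, against 40.7 to 44.7 CPM in siNC libraries. ESRRA was also lower with imatinib, at 30.4 to 35.6 CPM. All 7 markers of the GIST line averaged at least 1 CPM over the 9 libraries, as did KRT8 and KRT18 of 6 epithelial markers, but none of 5 leukocyte and none of 5 endothelial markers did. The endothelial markers summed to 1.68 to 2.03 CPM in siERRα libraries and 1.77 to 2.12 CPM in siNC libraries. With imatinib they summed to 2.10 to 3.36 CPM. CDH5 averaged 0.743, 1.5 and 0.701 CPM in siERRα, imatinib and siNC cells. In the same order VWF averaged 0.733, 0.822 and 0.752 CPM, and TEK 0.279, 0.28 and 0.383 CPM. CLDN5 averaged 0.0506, 0.0362 and 0.0838 CPM, and PECAM1 at most 0.0273 CPM. Members took 0.592% to 0.624% of all counts in siERRα libraries, 0.740% to 0.790% with imatinib and 0.601% to 0.628% in siNC libraries. Mitochondrially encoded genes took 0.943% to 1.03%, 1.48% to 1.54% and 0.846% to 0.989% of counts in the same groups, and the part of this difference in the results was not tested. In bulk RNA, fewer cells that express a gene and less of its RNA per cell cannot be told apart.

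Lumican was by far the most abundant core protein transcript when counts were scaled by exon length. LUM, a small leucine-rich proteoglycan of collagen-rich matrix, stood at 371 ± 33.6 CPM per kb in siERRα cells, 506 ± 41.6 with imatinib and 380 ± 9.91 in siNC cells (SD, n = 3 each). It made up 42.7%, 42.1% and 43.5% of the summed CPM per kb of the 28 core proteins in the same order of groups. The sum itself was 867 ± 45.6 CPM per kb in siERRα cells, 1200 ± 40.4 with imatinib and 874 ± 17.5 in siNC cells (SD, n = 3 each). The siERRα range of 841 to 920 CPM per kb overlapped the siNC range of 858 to 892, whereas all imatinib libraries, at 1154 to 1227, lay above both.

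Below lumican came a cell surface tier of SDC2, SDC3, GPC4 and CD44. In siNC cells SDC2 stood at 120 ± 4.64, GPC4 at 116 ± 2.78, SDC3 at 110 ± 5.33 and CD44 at 82.3 ± 4.24 CPM per kb (SD, n = 3). SDC2, GPC4 and SDC3 lay within 2 SD of their neighbours in this order. The order depends on the gene length used: over the longest transcript instead of all exons, CD44 stood at 151 and SDC2 at 149 CPM per kb in siNC cells, above SDC3 and GPC4. DCN moved most in the same way among the matrix proteins, with 27.3 CPM per kb over all exons and 51.7 over the longest transcript.

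After ERRα knockdown the members that changed were mostly lower, and aggrecan fell furthest among those above 1 CPM on average. Of the 34 tested members, 9 were lower (ACAN, SDC4, CSPG4, CHST11, GPC6, CHSY3, SDC1, BGN and OGN) and 1, SDC3, was higher, at an adjusted p under 0.05 in edgeR's quasi-likelihood test. Over all 16976 genes tested, 12.6% were lower and 11.4% higher, 23.9% in either direction. The study's cutoffs for a differentially expressed gene (DEG) also ask for a log2 fold change of 0.5 or more in either direction. The study applied them to DESeq2 results, and here they were applied to the edgeR fit. By these cutoffs 6 members were lower and 0 higher, against 5.28% lower and 1.98% higher of all genes. By DESeq2, by limma-voom, and in edgeR with unadjusted p (under 0.05) the number higher was 0 too. The median log2 fold change was -0.17 over the tested members and 0.00851 over all genes. The 9 lower members included matrix, cell surface and enzyme genes, and no role group had all of its tested members lower except the group that held only CSPG4.

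Imatinib was followed by higher levels of most core proteins. Relative to siNC, 20 of the 34 tested members were higher and 6 lower (edgeR, adjusted p under 0.05), where 21.4% of all genes were higher and 20.3% lower, 41.7% in either direction. Without library S16, 3 members were lower. As DEGs, 12 members were higher and 3 lower, against 10.6% and 7.02% of all genes. The 12 were PODN, OGN, GPC3, HSPG2, AGRN, SDC3, ACAN, DCN, CSPG4, XYLT1, GPC6 and BGN, and the 3 were BCAN, CHSY3 and CHSY1. The tested members had a median log2 fold change of 0.41, against 0.00226 over all genes. Among the 22 tested core proteins 16 were higher and 3 lower. OGN, counted in the 20, the 12 and the 16, passed the filter only through its imatinib libraries. With at least 10 counts required in every library, which drops OGN among others, 19 members were higher. Both comparisons use the same siNC libraries, so they are not independent of each other.

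**Figure D1:**
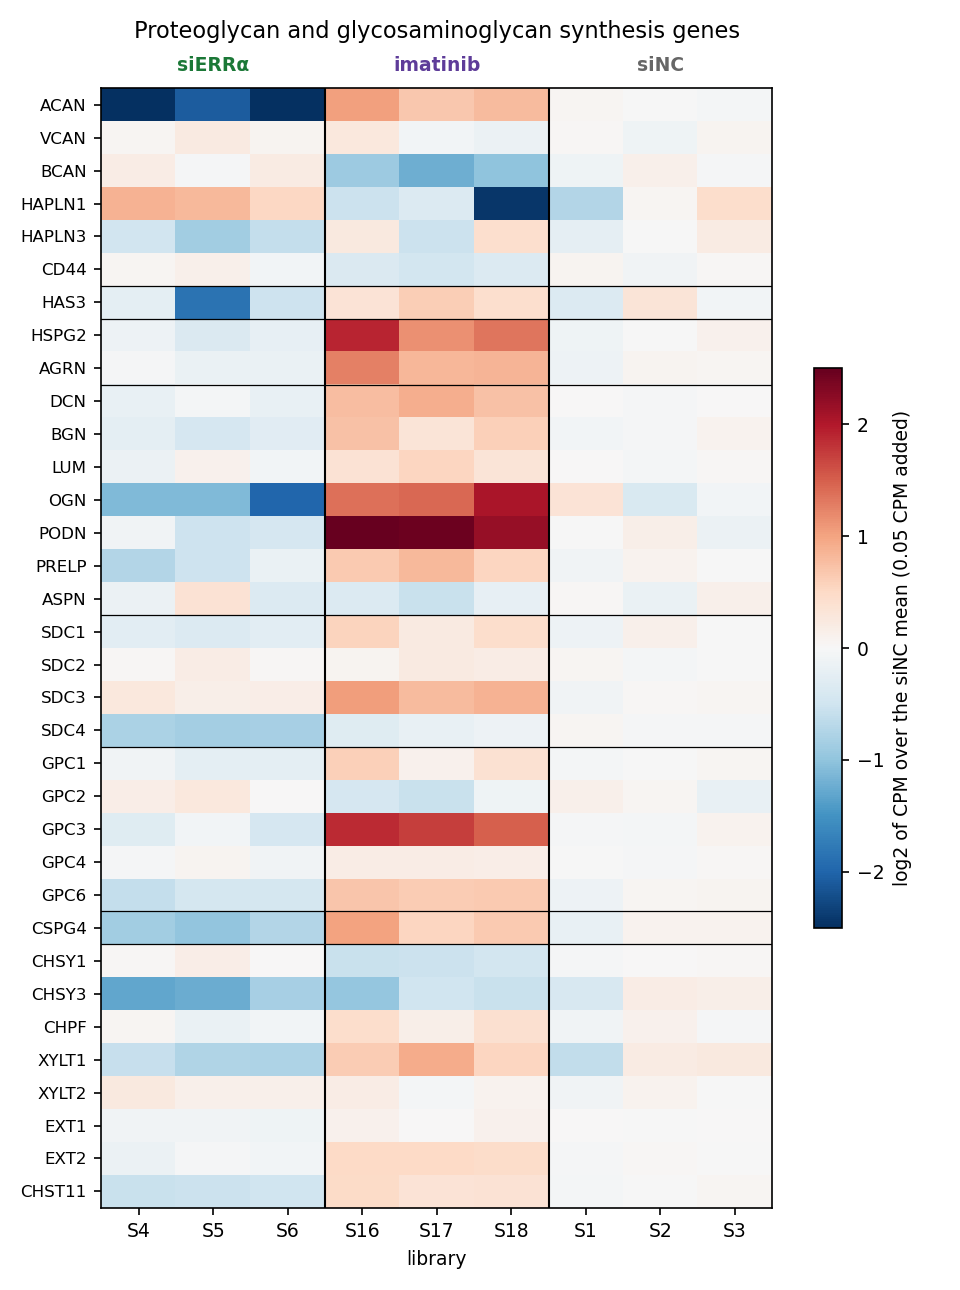
Heat map of the 34 tested members in the 9 libraries, grouped by role; colour is log2 of CPM over the siNC mean of the gene, with 0.05 CPM added to both (blue lower, red higher). ACAN, SDC4 and CSPG4 are blue in all 3 siERRα libraries, and PODN, GPC3 and HSPG2 are red in all 3 imatinib libraries.

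**Figure D2:**
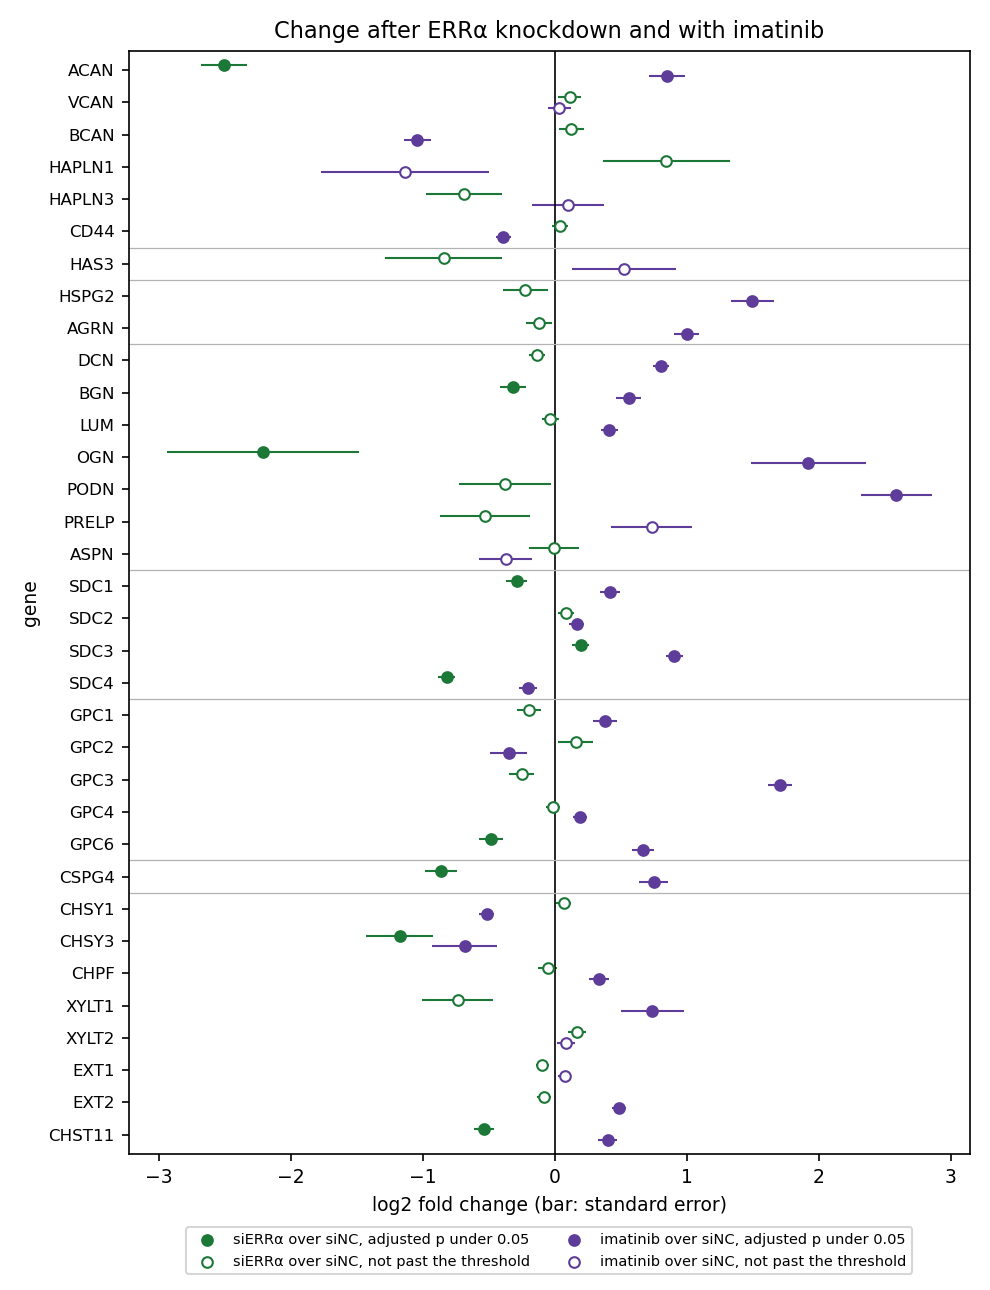
Log2 fold changes of the 34 tested members for siERRα over siNC (green) and imatinib over siNC (purple), with standard errors as bars and filled points for an adjusted p under 0.05. ACAN lies at -2.51 after knockdown and 0.85 with imatinib, and the widest bars belong to members with few counts.

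Among the hyalectans, the large chondroitin sulfate proteoglycans that bind hyaluronan, only ACAN was called after knockdown. ACAN encodes aggrecan, best known from cartilage, and lies at chr15:88803436-88875353 on the plus strand (GRCh38, GENCODE 44). It had 0.859, 1.18 and 0.618 CPM in siERRα libraries, against 5.32, 5.09 and 4.94 CPM in siNC libraries, so the groups were well apart. The fall was 5.68-fold (log2 fold change -2.51, SE 0.174, edgeR adjusted p = 5.36e-09). With imatinib ACAN had 10.5, 8.19 and 8.94 CPM, all above siNC (log2 fold change 0.85, SE 0.134, edgeR adjusted p = 4.77e-05). Per kb, ACAN stayed a minor transcript, at 0.0811 CPM per kb in siERRα cells, 0.844 with imatinib and 0.469 in siNC cells. Of the chondrocyte markers SOX9 and COL2A1 averaged at most 0.0658 CPM in every group, while COL9A1 averaged 49.2, 31.3 and 44.8 CPM and MATN3 2.49, 4.53 and 2.72 CPM in siERRα, imatinib and siNC cells.

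The ACAN promoter is printed because ACAN changed most of the well-measured members, and the SDC4 promoter because SDC4 was next by adjusted p. The sequences are the RefSeq promoters of GRCh38.p14, from 250 bases before to 50 bases after the annotated start, 5′ to 3′ on the gene's strand, at chr15:88803186-88803485 (plus strand) for ACAN and chr20:45348375-45348674 (minus strand) for SDC4. Capitals mark GC boxes (GGGCGG on either strand, overlapping matches counted), which were looked for after the values were seen.
ACAN: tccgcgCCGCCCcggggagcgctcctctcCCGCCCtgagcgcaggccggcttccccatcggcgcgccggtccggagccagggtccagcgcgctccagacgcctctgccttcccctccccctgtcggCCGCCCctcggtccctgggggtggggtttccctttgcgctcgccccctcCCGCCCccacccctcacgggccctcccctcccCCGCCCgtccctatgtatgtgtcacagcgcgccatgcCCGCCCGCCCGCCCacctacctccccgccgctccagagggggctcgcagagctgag
SDC4: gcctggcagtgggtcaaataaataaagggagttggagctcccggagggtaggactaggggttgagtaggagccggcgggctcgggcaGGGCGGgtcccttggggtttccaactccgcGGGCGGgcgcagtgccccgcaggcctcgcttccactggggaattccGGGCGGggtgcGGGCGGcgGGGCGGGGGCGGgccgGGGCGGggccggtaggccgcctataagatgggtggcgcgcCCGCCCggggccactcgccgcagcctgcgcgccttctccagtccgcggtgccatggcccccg
Each of these windows holds 8 GC boxes. The table gave promoters for 31 members, of which 24 (77.4%) hold at least 1 GC box, against 45.0% of 35116 promoters. The ERR core motif AAGGTCA, searched on both strands, is in 0 of the 31 member promoters and in 3.92% of all promoters of this length. No match says only that these letters are not in this window. The shares of all promoters cover every entry, whether or not its gene was tested here. For members only the first promoter of each gene was counted, so the sets compared are unlike.

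The other hyalectans did not follow aggrecan. BCAN, the brain proteoglycan brevican, had 15.5, 13.4 and 15.8 CPM in siERRα libraries and 12.7, 14.9 and 13.4 CPM in siNC libraries, which overlap. With imatinib BCAN had 7.24, 5.82 and 6.83 CPM, all below siNC (log2 fold change -1.04, SE 0.103, edgeR adjusted p = 1.71e-07). It was the largest fall among the members called with imatinib. BCAN shares 162 exon bases with an unnamed noncoding gene on the opposite strand, which averaged 10.3, 6.64 and 10.3 CPM in siERRα, imatinib and siNC cells, and without a stated strand setting their reads cannot be told apart there. VCAN, the versican of loose connective tissue, averaged 423 ± 28.4 CPM in siERRα cells, 401 ± 62.4 with imatinib and 392 ± 24.0 in siNC cells (SD, n = 3 each) and was not called in either comparison. NCAN, the neurocan of brain matrix, had 0 counts in the 3 siERRα libraries, which allows up to 0.0772 CPM in the shallowest of them, and at most 3 counts in any other library.

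The link proteins, which tie hyalectans to hyaluronan, were scarce. HAPLN1 had 0.440, 0.421 and 0.335 CPM in siERRα libraries, 0.136, 0.162 and 0 CPM with imatinib and 0.112, 0.229 and 0.318 CPM in siNC libraries. It was called in neither comparison with siNC, with edgeR adjusted p of 0.224 after knockdown and 0.164 with imatinib. HAPLN3 averaged 0.523 ± 0.0741 CPM in siERRα cells, 0.906 ± 0.303 with imatinib and 0.843 ± 0.128 in siNC cells (SD, n = 3 each), again with no call against siNC. CD44, the main hyaluronan receptor, had 845, 900 and 783 CPM in siERRα libraries, overlapping the siNC values of 857, 775 and 835 CPM. With imatinib CD44 had 637, 596 and 648 CPM, all below siNC (log2 fold change -0.39, SE 0.0602, edgeR adjusted p = 3.54e-05). HAS3, a hyaluronan synthase, averaged 0.196, 0.506 and 0.355 CPM in siERRα, imatinib and siNC cells and was not called against siNC. It shares 365 exon bases with CHTF8, which averaged 2.62, 3.24 and 2.97 CPM in the same groups.

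The basement membrane proteoglycans were higher with imatinib and were not called after knockdown. HSPG2, the gene of perlecan at chr1:21822244-21937310 (minus strand), had 87.8, 51.8 and 59.5 CPM with imatinib, against 21.8, 23.4 and 25.3 CPM in siNC libraries. The rise was 2.82-fold (log2 fold change 1.5, SE 0.166, edgeR adjusted p = 2.84e-05), and library S16 stood apart from the other imatinib libraries. Leaving out each library in turn kept the log2 fold change between 1.24 and 1.64. AGRN, the gene of agrin, which organizes the neuromuscular junction, had 415, 305 and 311 CPM with imatinib, against 158, 181 and 178 CPM in siNC libraries (log2 fold change 1.00, SE 0.0981, edgeR adjusted p = 9.70e-07). Here too S16 was the highest. After knockdown HSPG2 had 21.6, 18.4 and 20.4 CPM and AGRN 169, 153 and 153 CPM, with edgeR adjusted p of 0.394 and 0.409.

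Of the 7 tested small leucine-rich proteoglycans, which bind collagen fibrils and growth factors such as TGFβ, 5 were higher with imatinib and 0 lower. The 5 include OGN, which passed the filter only through its imatinib libraries. Over all genes tested, 21.4% were higher and 20.3% lower. The number of the 7 that were lower was 0 also in DESeq2, in limma-voom, and in edgeR with unadjusted p (under 0.05). DCN, the gene of decorin, had 601, 663 and 585 CPM with imatinib, against 356, 349 and 356 CPM in siNC libraries (log2 fold change 0.80, SE 0.0590, edgeR adjusted p = 3.69e-09). LUM had 1312, 1476 and 1265 CPM with imatinib, against 1021, 986 and 1037 CPM in siNC libraries, a smaller rise (log2 fold change 0.41, SE 0.0670, edgeR adjusted p = 6.34e-05). The imatinib and siNC libraries did not overlap for either gene. PODN, the gene of podocan, had 1.95, 1.83 and 1.5 CPM with imatinib, against 0.291, 0.331 and 0.258 CPM in siNC libraries (log2 fold change 2.59, SE 0.267, edgeR adjusted p = 3.05e-07). That is 72, 68 and 55 counts, against 13, 13 and 13.

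After knockdown DCN and LUM were close to siNC. DCN had 310, 344 and 311 CPM in siERRα libraries and was not called (edgeR adjusted p = 0.101), though it was called without S5 or S17 (edgeR adjusted p = 0.0173 and 0.0464). LUM had 918, 1091 and 962 CPM in siERRα libraries, with an edgeR adjusted p of 0.761. BGN, the gene of biglycan, a close relative of decorin, had 12.8, 11.4 and 12.4 CPM in siERRα libraries, against 14.5, 14.8 and 16.2 CPM in siNC libraries (log2 fold change -0.32, SE 0.0984, edgeR adjusted p = 0.0249). The groups did not overlap, but the call was lost without S5 (0.0564) or S3 (0.112). With imatinib BGN had 25.2, 18.8 and 23.0 CPM (log2 fold change 0.56, SE 0.0961, edgeR adjusted p = 1.17e-04).

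OGN, the gene of osteoglycin, rests on few reads. It had 2, 2 and 0 counts in siERRα libraries, against 9, 4 and 7 counts in siNC libraries (fitted log2 fold change -2.21, SE 0.725, edgeR adjusted p = 0.0322). The call was lost without S4 (0.0595), S6 (0.102), S1 (0.124) or S3 (0.0673), and DESeq2 gave OGN no adjusted p in this comparison. With imatinib OGN had 17, 18 and 28 counts, all above siNC (fitted log2 fold change 1.92, SE 0.437, edgeR adjusted p = 0.00157). OGN was tested only because these imatinib libraries passed the filter, so this rise is not independent of the filter. PRELP and ASPN, which averaged 0.266 and 2.03 CPM in siERRα cells, 0.633 and 1.58 CPM with imatinib and 0.381 and 2.04 CPM in siNC cells, were called in neither comparison with siNC.

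**Figure D3:**
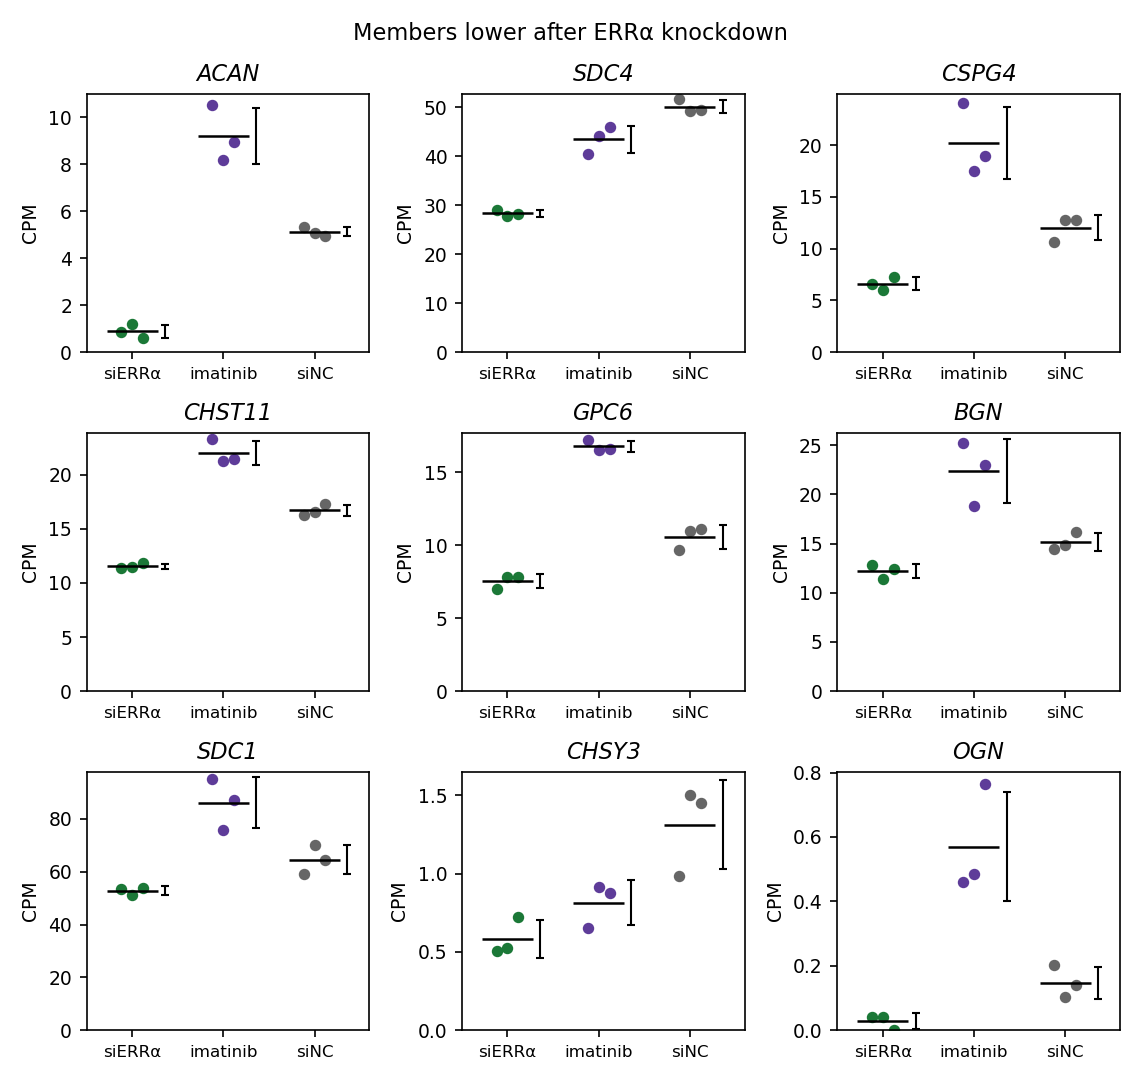
CPM in each library (points), group mean (line) and SD over the 3 libraries (bar) for the 9 members that were lower after ERRα knockdown. The siERRα points lie below all siNC points in each panel, and the imatinib points lie above siNC for ACAN, CSPG4, CHST11, GPC6, BGN, SDC1 and OGN.

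Each of the 4 syndecans, the transmembrane heparan sulfate carriers, was called with imatinib, and 3 were called after knockdown. Of all genes tested, 41.7% were called with imatinib and 23.9% after knockdown, in either direction. SDC4, which sits in focal adhesions, had 29.1, 27.8 and 28.2 CPM in siERRα libraries, against 51.6, 49.3 and 49.4 CPM in siNC libraries. This 1.77-fold fall had little spread (log2 fold change -0.82, SE 0.0659, edgeR adjusted p = 3.53e-08). With imatinib SDC4 had 40.4, 44.1 and 45.9 CPM, a smaller fall (log2 fold change -0.21, SE 0.0651, edgeR adjusted p = 0.0161) that was not called without S16 (0.0769) or S1 (0.0730). SDC1, the main syndecan of epithelia, had 53.6, 51.1 and 53.9 CPM in siERRα libraries, against 59.3, 70.2 and 64.4 CPM in siNC libraries (log2 fold change -0.29, SE 0.0782, edgeR adjusted p = 0.0104), and missed the threshold without S2 (0.0514). With imatinib SDC1 had 95.1, 76.0 and 87.3 CPM, above all siNC libraries (log2 fold change 0.41, SE 0.0777, edgeR adjusted p = 2.72e-04).

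SDC3, best known from nervous tissue, was the exception after knockdown. It had 934, 865 and 872 CPM in siERRα libraries, against 736, 793 and 807 CPM in siNC libraries (log2 fold change 0.19, SE 0.0639, edgeR adjusted p = 0.0333). The siERRα libraries lay above siNC, but the call was lost when S4, S6, S18, S1, S2 or S3 was left out (edgeR adjusted p = 0.139, 0.0784, 0.0578, 0.154, 0.0617 and 0.0679 for these libraries). With imatinib the difference was larger, at 1604, 1339 and 1430 CPM (log2 fold change 0.90, SE 0.0643, edgeR adjusted p = 2.38e-09). SDC2, at 520 ± 32.5 CPM in siERRα cells, 550 ± 30.4 with imatinib and 491 ± 18.9 in siNC cells (SD, n = 3 each), was called with imatinib only (edgeR adjusted p = 0.0332), and not without S17, S18, S2 or S3 (0.108, 0.0947, 0.110 and 0.0883). SDC2 in siERRα cells did not pass the test against imatinib directly (edgeR adjusted p = 0.275).

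The make-up of the syndecan and glypican families shifted with these changes. SDC3 was 45.2% ± 1.92 of the summed syndecan CPM per kb in siERRα cells, 54.0% ± 3.08 with imatinib and 41.2% ± 1.69 in siNC cells (SD, n = 3 each). SDC4 was 3.89% ± 0.127, 4.37% ± 0.395 and 7.17% ± 0.244 of the sum in the same groups. The syndecan sum itself averaged 278.9, 381.3 and 267.5 CPM per kb in these groups. The lower SDC4 share with imatinib therefore also reflects the larger sum. GPC3 was 6.25% ± 0.455 of the summed glypican CPM per kb in siERRα cells, 17.9% ± 1.64 with imatinib and 7.22% ± 0.184 in siNC cells. GPC4 held most of that sum in every group, with 82.8%, 70.3% and 80.7%.

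**Figure D4:**
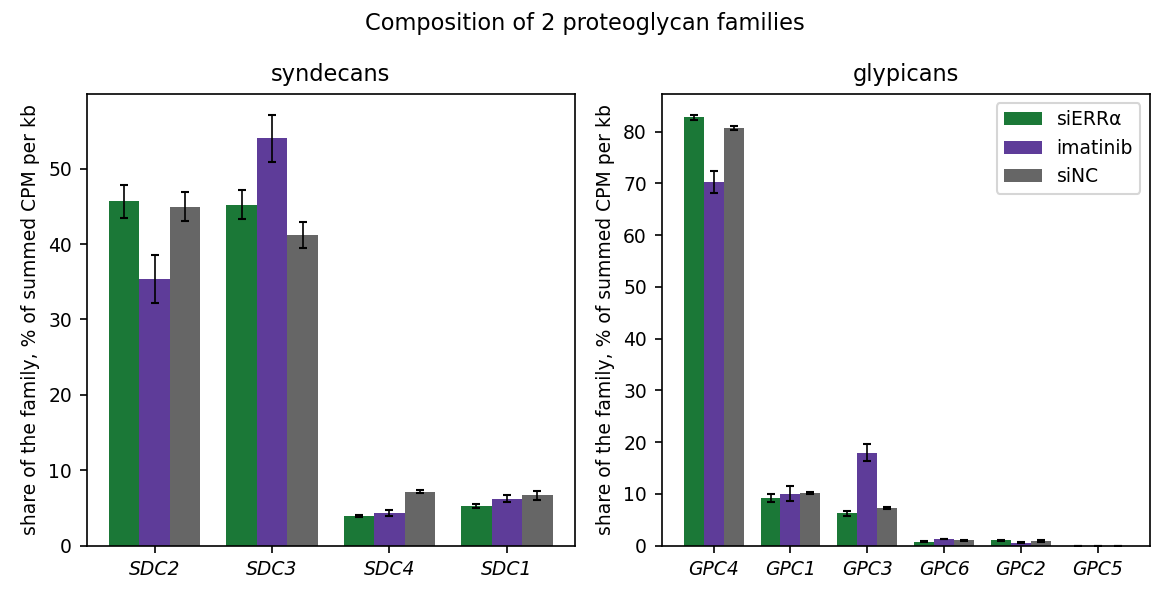
Share of each gene in the summed CPM per kb of the syndecans (left panel) and of the glypicans (right panel) in siERRα, imatinib and siNC cells; bars are means and whiskers the SD over 3 libraries. The SDC4 share was lower in siERRα and imatinib cells (3.89% and 4.37%) than in siNC cells (7.17%), and the GPC3 share was 17.9% with imatinib, against 7.22% in siNC cells. A share also depends on the family sum, which for syndecans was larger with imatinib.

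Glypicans hang heparan sulfate on a lipid anchor, and GPC3 is the member in which loss-of-function mutations cause an overgrowth syndrome. GPC3, at chrX:133535745-133987100 on the minus strand, had 123, 112 and 96.1 CPM with imatinib, against 33.1, 32.7 and 35.8 CPM in siNC libraries. The rise was 3.25-fold (log2 fold change 1.70, SE 0.0909, edgeR adjusted p = 6.48e-11). In siERRα libraries GPC3 had 27.6, 32.2 and 25.4 CPM, just short of a call (log2 fold change -0.25, SE 0.0921, edgeR adjusted p = 0.0527). It was called without S5 (0.00375), S16 (0.0311), S17 (0.0488) or S18 (0.0279).

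GPC6, whose mutations cause a short-limbed dysplasia, had 7.02, 7.83 and 7.82 CPM in siERRα libraries, against 9.64, 10.9 and 11.1 CPM in siNC libraries (log2 fold change -0.49, SE 0.0894, edgeR adjusted p = 5.03e-04). With imatinib it had 17.2, 16.5 and 16.6 CPM (log2 fold change 0.67, SE 0.0857, edgeR adjusted p = 4.57e-06). The 3 groups did not overlap. GPC1 and GPC4 were higher with imatinib (log2 fold changes 0.38 and 0.19) and GPC2 lower (-0.35), with edgeR adjusted p of 0.00208, 0.00694 and 0.0454. The GPC2 groups overlapped, and its call was lost without S4, S16, S17, S1 or S2 (0.0539, 0.121, 0.184, 0.163 and 0.1). None of GPC1, GPC2 and GPC4 was called after knockdown, although leaving out S17 gave a call for GPC1 (0.0325). GPC5 had at most 6 counts in any library.

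CSPG4 encodes NG2, a chondroitin sulfate proteoglycan of pericytes and glial progenitors, and lies at chr15:75674322-75712848 on the minus strand. It had 6.58, 6.04 and 7.26 CPM in siERRα libraries, against 10.6, 12.7 and 12.7 CPM in siNC libraries, a 1.82-fold fall (log2 fold change -0.86, SE 0.119, edgeR adjusted p = 2.67e-05). With imatinib CSPG4 had 24.1, 17.5 and 18.9 CPM (log2 fold change 0.75, SE 0.112, edgeR adjusted p = 2.54e-05). All siERRα libraries lay below and all imatinib libraries above siNC. The serglycin gene SRGN averaged 0.169, 0.162 and 0.266 CPM in siERRα, imatinib and siNC cells and was not tested.

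Among the 8 chain-building enzymes, CHST11 and CHSY3 were lower after knockdown. CHST11, which sulfates chondroitin at the 4-O position and lies at chr12:104455295-104762014 (plus strand), had 11.3, 11.4 and 11.8 CPM in siERRα libraries, against 16.2, 16.6 and 17.3 CPM in siNC libraries. The groups were far apart relative to their spread (log2 fold change -0.54, SE 0.0756, edgeR adjusted p = 3.43e-05). With imatinib CHST11 had 23.3, 21.3 and 21.5 CPM (log2 fold change 0.40, SE 0.0736, edgeR adjusted p = 2.32e-04). CHSY3, a minor chondroitin synthase, had 0.503, 0.526 and 0.721 CPM in siERRα libraries, against 0.984, 1.5 and 1.45 CPM in siNC libraries (log2 fold change -1.18, SE 0.252, edgeR adjusted p = 0.00191). With imatinib it had 0.651, 0.916 and 0.874 CPM (log2 fold change -0.69, SE 0.247, edgeR adjusted p = 0.0321), a call that was lost without S16, S18, S2 or S3 (0.127, 0.0556, 0.107 and 0.126) and in DESeq2's Wald test (adjusted p = 0.0566).

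CHSY1, the main chondroitin synthase here, was close to siNC after knockdown, with 160, 176 and 158 CPM in siERRα libraries and 154, 159 and 160 CPM in siNC libraries. With imatinib it had 108, 109 and 114 CPM (log2 fold change -0.52, SE 0.0571, edgeR adjusted p = 6.86e-07). Its partner CHPF moved the other way with imatinib, averaging 348 ± 36.5 CPM, against 276 ± 18.8 CPM in siNC cells (SD, n = 3 each; log2 fold change 0.34, SE 0.0744, edgeR adjusted p = 0.00127). CHPF shares 147 exon bases with TMEM198 on the opposite strand, which averaged 61.2 CPM with imatinib and 57.7 CPM in siNC cells. The enzymes that begin the linker differed from each other. XYLT1 had 1.52, 1.86 and 1.42 CPM with imatinib, against 0.604, 1.12 and 1.15 CPM in siNC libraries (log2 fold change 0.74, SE 0.239, edgeR adjusted p = 0.0183), and was not called without S17 (0.0885) or S1 (0.119). In siERRα libraries it had 0.629, 0.547 and 0.540 CPM, which missed the threshold (edgeR adjusted p = 0.0520) but passed it without S1 (0.0107), with at least 10 counts required in every library (0.0466) and with counts thinned to the smallest total (0.0252). XYLT2, at 84.8 ± 3.57 CPM in siERRα cells, 80.0 ± 6.47 with imatinib and 75.5 ± 4.39 in siNC cells (SD, n = 3 each), was not called against siNC.

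The exostosins form the heparan sulfate polymerase, and EXT2 was called with imatinib but EXT1 was not. EXT2 had 386, 384 and 377 CPM with imatinib, against 266, 280 and 273 CPM in siNC libraries (log2 fold change 0.49, SE 0.0513, edgeR adjusted p = 3.91e-07). EXT1 averaged 326 ± 12.2 CPM with imatinib, against 310 ± 3.01 CPM in siNC cells (SD, n = 3 each; edgeR adjusted p = 0.259). Neither was called after knockdown, where EXT2 averaged 258 ± 10.4 CPM and EXT1 289 ± 2.69 CPM. The difference between the changes of EXT2 and EXT1 was not tested.

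Set directly against imatinib, siERRα cells were lower in 24 of the 34 tested members and higher in 5. Over all genes tested, 26.6% were lower and 25.6% higher, 52.2% in either direction (edgeR, adjusted p under 0.05), and as DEGs 20 members were lower and 4 higher, against 15.7% and 10.6% of all genes. The median log2 fold change was -0.66 over the tested members and -0.00449 over all genes. ACAN differed most among members above 1 CPM on average, with 0.859, 1.18 and 0.618 CPM in siERRα libraries, against 10.5, 8.19 and 8.94 CPM with imatinib, a 10.2-fold difference (log2 fold change -3.36, SE 0.168, edgeR adjusted p = 1.09e-11). Next came GPC3 at -1.96, HSPG2 at -1.72, CSPG4 at -1.61 and XYLT1 at -1.48 on the log2 scale. GPC6 (-1.15), CHST11 (-0.93), BGN (-0.87) and SDC4 (-0.62) were also lower. SDC3, higher than siNC in both, was lower in siERRα cells than with imatinib (-0.71).

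The 5 members higher in siERRα cells than with imatinib were BCAN, HAPLN1, CHSY1, GPC2 and CD44. BCAN differed 2.24-fold (log2 fold change 1.17, SE 0.103, edgeR adjusted p = 1.87e-08). HAPLN1 had 21, 20 and 13 counts in siERRα libraries, against 5, 6 and 0 counts with imatinib (log2 fold change 1.98, SE 0.579, edgeR adjusted p = 0.00736). HAPLN1 passed the filter only with these siERRα libraries, so this call is not independent of the filter. CHSY1, GPC2 and CD44 had log2 fold changes of 0.58, 0.51 and 0.43. CHSY3 was not called here (log2 fold change -0.49, SE 0.274, edgeR adjusted p = 0.143). VCAN was not called either (0.468), except without S16 (0.0155). Among the 24 lower members, HAPLN3 was not called without S5, S6, S16 or S18 (0.0869, 0.0504, 0.0896 and 0.155), nor HAS3 without S5 (0.0696).

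Other genes of the pathway were listed by function, and knockdown lowered some in each synthesis list, where 12.6% of all genes were lower and 11.4% higher. The genes named from a list are those that changed most among its called genes averaging at least 1 CPM. Of 9 tested linker and chain start enzymes, 3 were lower and 1 higher, led by PXYLP1, the phosphatase that removes phosphate from the linker xylose, at 35.6 ± 1.72 CPM in siERRα cells, against 54.3 ± 0.590 CPM in siNC cells (SD, n = 3 each; log2 fold change -0.61, edgeR adjusted p = 7.15e-07), and by CSGALNACT2, which adds the first chondroitin sugar (-0.58, 1.47e-05). Of 9 tested chondroitin and dermatan chain and sulfation enzymes 4 were lower and 0 higher, with the sulfotransferases UST (-0.92, 3.26e-04) and CHST12 (-0.44, 6.08e-04) the most changed of the 4. The heparan sulfate modification enzymes had 3 of 12 lower and 0 higher, led by the sulfotransferases HS3ST3A1 (-0.82, 3.86e-06) and HS6ST2 (-0.41, 7.07e-04). At an unadjusted p under 0.05 in edgeR the chondroitin list had 0 and the heparan list 1 higher gene, and DESeq2 and limma-voom called 0 higher in each.

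The supply of activated sugars and sulfate was lower in 6 of 17 tested genes and higher in 0 after knockdown, against 12.6% and 11.4% of all genes, and 0 were higher in DESeq2, in limma-voom, or in edgeR with unadjusted p (under 0.05). SLC35D1, a transporter of nucleotide sugars into the endoplasmic reticulum, had 45.9 ± 2.7 CPM in siERRα cells, against 83.0 ± 1.51 CPM in siNC cells (SD, n = 3 each; log2 fold change -0.85, SE 0.0599, edgeR adjusted p = 5.84e-09). UGP2, which makes UDP-glucose, had 89.3 ± 12.1 CPM in siERRα cells, against 156 ± 12.0 CPM in siNC cells (log2 fold change -0.81, SE 0.0849, edgeR adjusted p = 1.39e-06). In the hyaluronan turnover list 2 of 8 were lower and 1 higher, with CEMIP, a hyaluronan-degrading protein, at -0.90 and the hyaluronidase family gene HYAL3 at 0.50. In the cleavage list 4 of 10 were lower and 2 higher, with heparanase HPSE at -0.72 and the protease ADAMTS9 at -0.55. Of 9 tested further core proteins 3 were lower and 2 higher, with SPOCK2 (-1.20) and SPOCK1 (-0.33), which encode testicans, the most changed among the called genes at that level. These 3 lists hold 8 to 10 tested genes each, and the 1 of 8 higher in hyaluronan turnover is near the 11.4% of all genes.

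With imatinib the list with the largest share higher was lysosomal breakdown of glycosaminoglycans, in which 11 of 13 tested genes were higher and 0 lower, against 21.4% and 20.3% of all genes. The number lower was 0 also in DESeq2, in limma-voom, and in edgeR with unadjusted p (under 0.05). GLB1, the lysosomal β-galactosidase, had 227 ± 12.7 CPM with imatinib, against 113 ± 3.85 CPM in siNC cells (SD, n = 3 each; log2 fold change 1.01, SE 0.0589, edgeR adjusted p = 1.80e-10). HEXA, a subunit of β-hexosaminidase, had a log2 fold change of 0.98 (1.14e-08). After knockdown the same list had 1 higher (HGSNAT, 0.19) and 1 lower (GLB1, -0.24) of 13. In that comparison 11.4% of all genes were higher and 12.6% lower.

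Against the same 21.4% of all genes higher and 20.3% lower, the heparan modification list had 6 of 12 higher and 1 lower with imatinib, led by the sulfotransferase HS6ST3 (1.57) and by SULF2, an enzyme that removes sulfate from heparan sulfate outside the cell (1.28). Of 10 cleavage genes 5 were higher and 4 lower, and the ADAMTS proteases, which cut aggrecan and versican, included both: ADAMTS15 had 59.2 ± 1.71 CPM with imatinib, against 22.3 ± 0.624 CPM in siNC cells, and ADAMTS4 had 17.7 ± 1.40 CPM, against 43.4 ± 2.39 CPM (SD, n = 3 each). Their log2 fold changes were 1.41 and -1.29 (edgeR adjusted p = 4.80e-11 and 1.76e-10). Donor supply had 1 of 17 higher and 5 lower, with UAP1 and PAPSS2, which make UDP-N-acetylglucosamine and the sulfate donor, at -0.53 and -0.37. Hyaluronan turnover had 2 of 8 higher and 3 lower, with CEMIP at 0.90 and HMMR, a hyaluronan-binding spindle protein, at -0.42. Linker and chain start genes had 2 of 9 higher and 2 lower (B4GALT7 at 0.41 and CSGALNACT2 at -0.39 changed most of the 4 called), and chondroitin and dermatan genes 4 of 9 higher and 1 lower (CHST3 at -0.44 and CHST12 at 0.34). Further core proteins had 5 of 9 higher and 2 lower, with APLP2 at 1.30 and COL18A1 at 0.89. The counts for hyaluronan turnover higher, and for linker and chain start in both directions, are near the shares of all genes.

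**Figure D5:**
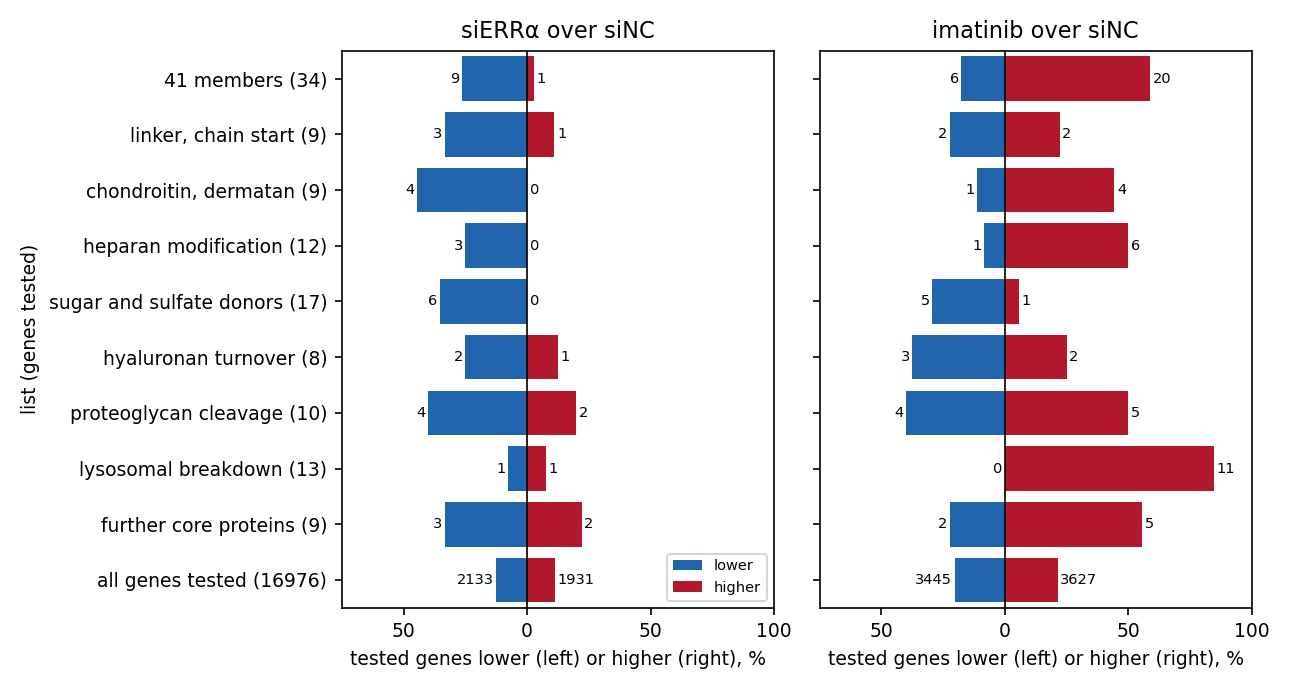
Percent of tested genes lower (blue, left) or higher (red, right) at an adjusted p under 0.05 in each list, for siERRα over siNC and imatinib over siNC; numbers beside the bars are gene counts and numbers in brackets are genes tested. Lysosomal breakdown had 11 of 13 genes higher with imatinib, and the sugar and sulfate donor list had 6 of 17 lower after knockdown.

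Against imatinib, where 26.6% of all genes were lower in siERRα cells and 25.6% higher, siERRα cells had 10 of 13 lysosomal breakdown genes lower and 1 higher, 8 of 12 heparan modification genes lower and 1 higher, 8 of 17 donor supply genes lower and 3 higher, and 6 of 10 cleavage genes lower and 3 higher. Of the 9 tested genes in each of the linker, chondroitin and further core lists 6 were lower, with 2, 0 and 3 higher, the 0 also being 0 in DESeq2, in limma-voom, and in edgeR with unadjusted p (under 0.05). Hyaluronan turnover had 2 of 8 lower and 3 higher. In the lysosomal, heparan, donor and cleavage lists the lead differences were GLB1 at -1.25, HS6ST3 at -2.04, SLC35D1 at -0.58 and ADAMTS15 at -1.29 on the log2 scale. ADAM17, a sheddase that releases syndecan ectodomains, went the other way, with 75.3 ± 3.82 CPM in siERRα cells, against 35.6 ± 0.259 CPM with imatinib (SD, n = 3 each; log2 fold change 1.08, SE 0.0643, edgeR adjusted p = 9.12e-11).

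Several tested members are neighbours in the genome, and some of these pairs differed widely in level or change. Pairs that include OMD or FMOD, which were not tested, are left out. ACAN and HAPLN3 end 1.94 kb apart on opposite strands of chromosome 15, and their log2 fold changes after knockdown were -2.51 (SE 0.174) and -0.69 (SE 0.289), with HAPLN3 not called (edgeR adjusted p = 0.0928). LUM and DCN lie 29 kb apart on chromosome 12 on the same strand, and both were higher with imatinib. GPC4 and GPC3 lie 120 kb apart on the X chromosome, where the imatinib log2 fold changes were 0.19 (SE 0.0519) for GPC4 and 1.70 (SE 0.0909) for GPC3. VCAN and HAPLN1 lie 55.5 kb apart on chromosome 5, with VCAN above 355 CPM in every library and HAPLN1 at or below 0.440 CPM.

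The 7-base sequence ATGTTCT was looked for in 3′ UTRs, since an earlier search of these same libraries had singled it out, so its share among lowered genes is not independent evidence. In GENCODE 44, 9 of the 34 tested members hold a copy (26.5%), against 19.0% of 12744 tested genes with a 3′ UTR. Of the 9 members lower after knockdown 4 hold a copy (44.4%), against 37.2% of 1968 lowered genes. The shares are not corrected for length, and longer 3′ UTRs have more room for a match. The median 3′ UTR was 1827 bases in tested members and 1397 in all tested genes. Among lowered members and all lowered genes it was 1969 and 1752 bases. ACAN, SDC4 and CSPG4, which had the smallest p-values among the lowered members, hold none. The sites of the 4 are shown on the transcript strand, 5′ to 3′, with the 7 bases in capitals (GRCh38).
BGN, chrX:153508867-153508873, plus strand, exon 8: tccagacacacATGTTCTgttcctcctcc
GPC6, chr13:94405634-94405640, plus strand, exon 9: aatgtgaacccATGTTCTatacgcactaa
GPC6, chr13:94406194-94406200, plus strand, exon 9: cctctatttacATGTTCTttagttataat
CHSY3, chr5:130186113-130186119, plus strand, exon 3: agcttagaagaATGTTCTcttggggctta
CHST11, chr12:104758217-104758223, plus strand, exon 3: tgggggcatgaATGTTCTccttactaacc
GPC6 is the only one of these with 2 copies, in a 3′ UTR of 4803 bases. CHSY1, DCN, PRELP, HAPLN1 and XYLT1, the other tested members with a copy, were not called after knockdown. Their edgeR adjusted p was 0.460, 0.101, 0.295, 0.224 and 0.0520 in this order.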

How the data were processed

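RNA from 9 GIST-T1 libraries was sequenced in paired-end format. Per the submitters' processing notes, STAR 2.7.3a and featureCounts 2.0.1 were used with GRCh38 to align reads and to count them for each gene. The deposited table holds those raw counts, not normalized. The sources used here state neither the strand setting nor the annotation release nor how multi-mapped reads were handled. Samples were grouped by the labels, through the S number shared with the columns.

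Counts were filtered with filterByExpr (minimum count 10, minimum total 15), which kept 16976 genes, normalized by TMM and tested in edgeR 4.0.16 (R 4.3.3) by its quasi-likelihood test with robust dispersion, all 9 libraries in 1 fit, with Benjamini-Hochberg adjustment over all genes tested. Standard errors follow from each log2 fold change and the F statistic. The test was tried on simulated counts first. Alternatives were DESeq2 size factors, the DESeq2 1.42.0 Wald test, limma-voom (limma 3.58.1), no filter, a filter of 10 counts in every library, thinning to the smallest total, a replicate block, fits of the 6 libraries compared, the DEG rule and leaving out each library. Exon lengths, positions and 3′ UTRs came from GENCODE 44, and promoters from RefSeq. The limit of 3 counts behind a 0 covers counting error only.

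The members and lists were chosen with earlier results of these data known. Values in every library are given for members past the test with a log2 fold change of 0.5 or more in either direction against siNC and an average of at least 1 CPM, for other members where a role group needed them, and for lists the 2 largest changes per comparison among genes averaging at least 1 CPM. Figures were drawn with matplotlib.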

Additional observations from a re-analysis of the deposited data

How the results depend on the processing

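No called member changed direction under any alternative. Of the log2 fold changes of tested members recomputed under each alternative, 538 of 571 stayed on their side of the threshold for siERRα against siNC, 552 of 573 for imatinib against siNC and 567 of 574 for siERRα against imatinib. Under the DEG rule the called members were 6 for siERRα against siNC (0 higher) and 15 for imatinib against siNC (12 higher, 3 lower). The 1 member higher after knockdown, SDC3, was not called with at least 10 counts required in every library, which gave 0 higher, and leaving out 1 library gave 0 to 1 higher. Leaving out 1 library gave 7 to 13 members called after knockdown, of which 7 to 12 lower. For imatinib against siNC it gave 23 to 26 called, 18 to 20 higher and 3 to 6 lower, the 3 being without S16. For siERRα against imatinib it gave 27 to 29 called, 22 to 24 lower and 5 to 6 higher. Same-numbered libraries had correlations of their deviations from -0.0996 to 0.147. Differently numbered libraries were not compared in this way, so these values cannot settle whether the column numbers pair libraries. With the replicate block 11, 25 and 29 members were called for siERRα against siNC, imatinib against siNC and siERRα against imatinib, with GPC3 added (edgeR adjusted p = 0.0495) and GPC2 lost (0.0621). Thinning lost OGN (0.0757) and added XYLT1 (0.0252) after knockdown. The DESeq2 Wald test added GPC3 as lower after knockdown (adjusted p = 0.0353). At least 10 counts in every library added XYLT1 (0.0466) and GPC3 (0.0391) after knockdown and PRELP (0.0356) with imatinib. Members under about 1 CPM (OGN, PODN, HAPLN1, HAS3, CHSY3) are limited by counting error. Levels per kb depend on the gene model, and the cause of the other changes was not tested.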
